A study of Homo sapiens with 9 samples.

Results

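The genes described here encode the core of the RAS to ERK cascade: the GTPases HRAS and NRAS, the RAF kinases ARAF and BRAF, the MEK kinases MAP2K1 (MEK1) and MAP2K2 (MEK2), and the ERK kinase MAPK3 (ERK1). They were taken by symbol, which gave 7 genes of the 63241 in each deposited table, 1 Ensembl gene each. RNA came from MEG-01, a human cell line of megakaryoblasts with its origin in the blast crisis of chronic myeloid leukaemia. Cells were exposed to As2S2, an arsenic sulfide, or to PMA (a phorbol ester that activates protein kinase C), or served as control. All 9 libraries are of this 1 line, 3 in each group, and the labels give no dose or time of treatment. Whether replicates were grown separately is not stated either, so each p-value speaks for the spread among these libraries, which may be technical.

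RAS proteins bound to GTP recruit RAF kinases to the membrane, RAF phosphorylates MEK, and MEK phosphorylates ERK, which acts on cytoplasmic and nuclear targets. In megakaryocyte cell lines, sustained ERK signalling set off by phorbol esters is known to accompany differentiation. The cascade is switched by GTP loading and phosphorylation, which RNA levels do not measure. In bulk RNA, fewer cells that hold a transcript and less of it per cell cannot be told apart.

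Library totals, in units of 1e6 counts, ran from 18.2 to 20.4, and 14592 genes were tested. Of 8 megakaryocyte and platelet markers, 6 had a mean over 1 TPM (transcripts per 1e6, scaled by length) across the libraries. Of the chains of the platelet integrin, ITGA2B averaged 138 TPM with As2S2, 68.3 TPM with PMA and 190 TPM in control, and ITGB3 19.4, 51.5 and 11.7 TPM. PF4 and VWF lay at or near 0 in every group. The libraries of As2S2 replicate 1 and control replicate 2 lay away from the rest of their groups. Replicate pairs with either library had a mean chi-square of 12.0 to 15.2 over genes, while pairs with neither had 2.42 to 3.46. Their values for the 7 genes are given below, with and without them where a call turns on it.

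The stretch of 250 bases before the first listed start site is shown for the 3 genes that were lower with PMA (HRAS, ARAF and MAP2K2). It is also shown for MAP2K1, the relative of MAP2K2 that did not pass. The sequences are from RefSeq (GRCh38.p14), 5′ to 3′ on the gene's strand, at chr11:535577-535826 (minus strand), chrX:47560955-47561204 (plus), chr19:4124123-4124372 (minus) and chr15:66386662-66386911 (plus). Capitals mark GGGCGG, the core bound by SP1, and CCGGAA, an ETS core, on either strand.
HRAS: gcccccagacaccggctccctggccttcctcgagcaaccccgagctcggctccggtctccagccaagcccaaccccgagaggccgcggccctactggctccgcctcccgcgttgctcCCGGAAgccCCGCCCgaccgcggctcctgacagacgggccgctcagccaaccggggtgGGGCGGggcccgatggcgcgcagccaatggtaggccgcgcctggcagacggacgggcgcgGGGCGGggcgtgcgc
ARAF: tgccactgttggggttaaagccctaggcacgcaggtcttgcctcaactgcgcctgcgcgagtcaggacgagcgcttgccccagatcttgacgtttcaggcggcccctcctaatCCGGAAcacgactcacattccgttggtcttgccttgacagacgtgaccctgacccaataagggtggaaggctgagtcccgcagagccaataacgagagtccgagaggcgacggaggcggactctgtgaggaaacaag
MAP2K2: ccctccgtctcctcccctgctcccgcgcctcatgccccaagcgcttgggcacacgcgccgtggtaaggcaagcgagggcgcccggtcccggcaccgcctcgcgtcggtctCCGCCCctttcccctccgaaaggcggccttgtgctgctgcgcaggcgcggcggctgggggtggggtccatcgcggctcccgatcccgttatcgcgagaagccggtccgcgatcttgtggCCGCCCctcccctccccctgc
MAP2K1: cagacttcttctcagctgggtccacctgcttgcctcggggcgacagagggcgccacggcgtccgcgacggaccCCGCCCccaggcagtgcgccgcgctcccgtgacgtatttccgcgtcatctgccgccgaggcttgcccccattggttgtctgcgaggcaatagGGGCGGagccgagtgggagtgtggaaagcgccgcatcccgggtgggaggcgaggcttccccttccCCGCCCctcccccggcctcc
GGGCGG occurred 3 times in the HRAS window, 0 times in that of ARAF, 2 times in that of MAP2K2 and 3 times in that of MAP2K1, and it occurred in 42.6% of all 35116 windows of that length. CCGGAA occurred once in the HRAS and ARAF windows, 0 times in the other two, and in 14.5% of all windows. GC content was 77.2% for HRAS, 59.2% for ARAF, 74.0% for MAP2K2 and 71.2% for MAP2K1, against a median of 58.0%. MAP2K2 and MAP2K1 each also had a second window, not printed here, in which GGGCGG and CCGGAA occurred 0 times. Its GC content was 59.6% for MAP2K2 and 53.2% for MAP2K1. Neither motif was in the windows of all 3 genes that fell.

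In control cells the MEK genes were the most abundant of the 7 per length and BRAF the least. MAP2K2 averaged 47.6 ± 4.27 TPM and MAP2K1 27.8 ± 1.05 TPM (SD, n = 3), and the libraries of these 2 genes did not overlap with each other or with the rest. HRAS (17.9 ± 2.37 TPM), MAPK3 (17.5 ± 2.46), NRAS (16.2 ± 2.68) and ARAF (12.2 ± 1.22) followed, and each overlapped with its neighbour in that order. BRAF stood at 4.18 ± 0.39 TPM, below every library of ARAF. With As2S2 the order was MAP2K2, MAP2K1, MAPK3, NRAS, HRAS, ARAF and BRAF, and the 4 genes from MAPK3 to ARAF again overlapped with their neighbours. With PMA the order was the same as with As2S2, and no neighbours overlapped. Among genes with over 1 TPM in control, MAP2K2 lay at percentile 85.7 and BRAF at percentile 33.3.

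**Figure D1:**
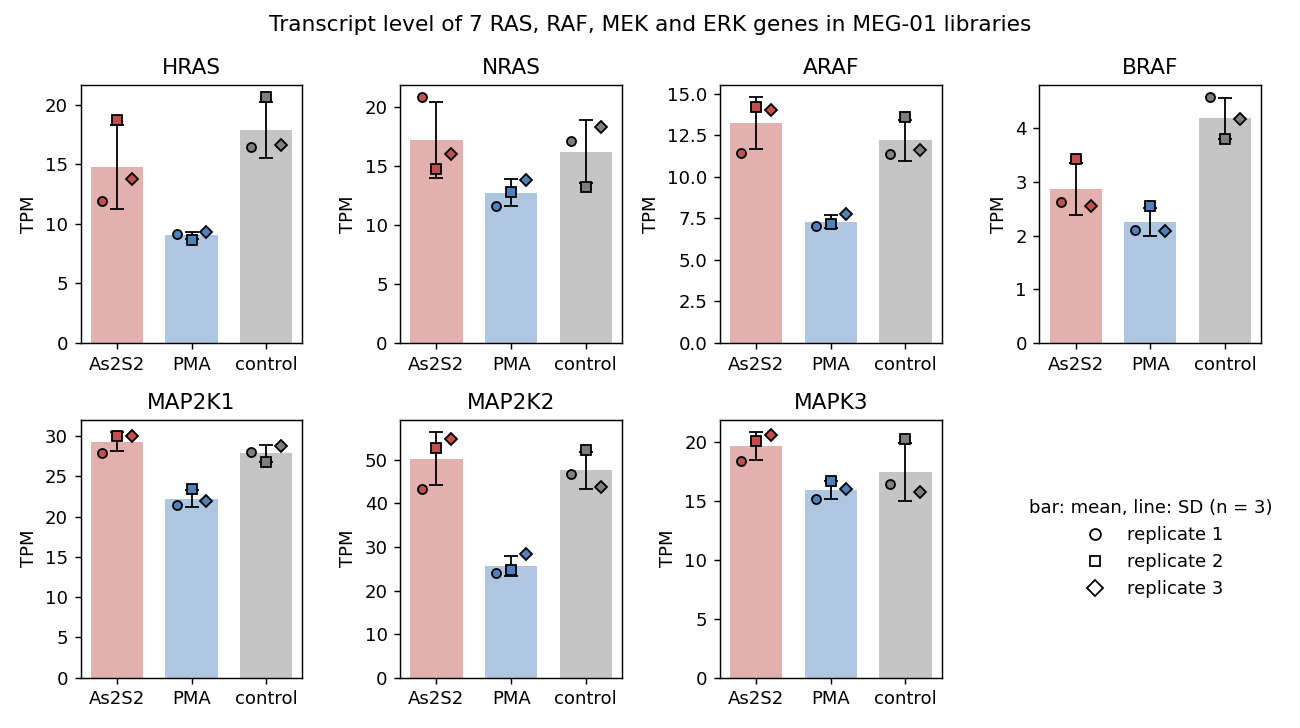
TPM of the 7 genes (y axis, from 0 in each panel) in As2S2, PMA and control libraries. Points are libraries, bars are means and lines are SDs (n = 3). PMA libraries of MAP2K2 lie between 24.0 and 28.3 TPM, below every As2S2 and control library.

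The 2 treatments have to be read against a shift in scale. With PMA against control, the median fold change of all tested genes was -0.26 (log2) on library totals and on TPM. It was 0.00 after TMM scaling, which by design centres the bulk of genes. The cause of the shift was not tested. For As2S2 the same medians were -0.08 on library totals and -0.07 on TPM. Fold changes below are from TMM-scaled counts (edgeR, quasi-likelihood F-test, Benjamini-Hochberg over all tested genes) and are thus relative to the middle gene. TPM values are shares of the whole RNA.

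With PMA the RNA of HRAS, ARAF and MAP2K2 fell, 1 gene each of the RAS, RAF and MEK steps, while the other 4 genes did not pass the test. MAP2K2 averaged 25.7 ± 2.33 TPM with PMA and 47.6 ± 4.27 TPM in control, HRAS 9.04 ± 0.316 and 17.9 ± 2.37 TPM, and ARAF 7.31 ± 0.387 and 12.2 ± 1.22 TPM (SD, n = 3 each). On TMM-scaled counts, 3 of the 7 genes fell and 0 rose, against 31.1% of all tested genes that fell and 61.9% that changed in either direction. Of all tested genes 30.8% rose. A share of 3 in 7 is thus below the share of all genes called in either direction. Marker levels moved in the same libraries: the summed TPM of 8 megakaryocyte and platelet markers was 183 to 205 with PMA and 281 to 306 in control, and that of 3 erythroid markers 134 to 145 and 58.2 to 60.2. Within these sums the genes differed in direction. ITGA2B and GATA1 (52.7 TPM with PMA, 72.8 TPM in control) were lower with PMA, and ITGB3 and GP9 (3.07 and 0.607 TPM) were higher. Of the erythroid markers HBG1 was higher (115 TPM with PMA, 18.2 TPM in control), while ALAS2 (4.78 and 11.3 TPM) had a lower mean. Their part in the values of the cascade genes was not tested.

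HRAS had 9.15, 8.68 and 9.28 TPM in PMA replicates 1, 2 and 3, against 16.5, 20.6 and 16.6 TPM in the control libraries. All PMA libraries were below all controls. The fold change was -0.59 ± 0.14 (log2, SE, adjusted p = 0.00137, edgeR), and on TPM it was -0.91 (adjusted p = 0.000321, limma). ARAF had 7.02, 7.16 and 7.75 TPM with PMA, against 11.4, 13.6 and 11.6 TPM in control, again without overlap. Its fold change was -0.36 ± 0.11 (adjusted p = 0.00933, edgeR) and -0.67 on TPM (adjusted p = 0.000298, limma). MAP2K2 had 24.0, 24.7 and 28.3 TPM with PMA, against 46.7, 52.2 and 43.8 TPM in control, without overlap. Its fold change was -0.47 ± 0.11 (adjusted p = 0.00159, edgeR) and -0.87 on TPM (adjusted p = 4.1e-05, limma). All 3 calls held in each of the 21 other settings. Control replicate 2 was the highest control library for all 3 genes, and without it the fold changes were -0.46 for HRAS (adjusted p = 0.00362), -0.26 for ARAF (adjusted p = 0.0333) and -0.33 for MAP2K2 (adjusted p = 0.00373, edgeR).

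**Figure D2:**
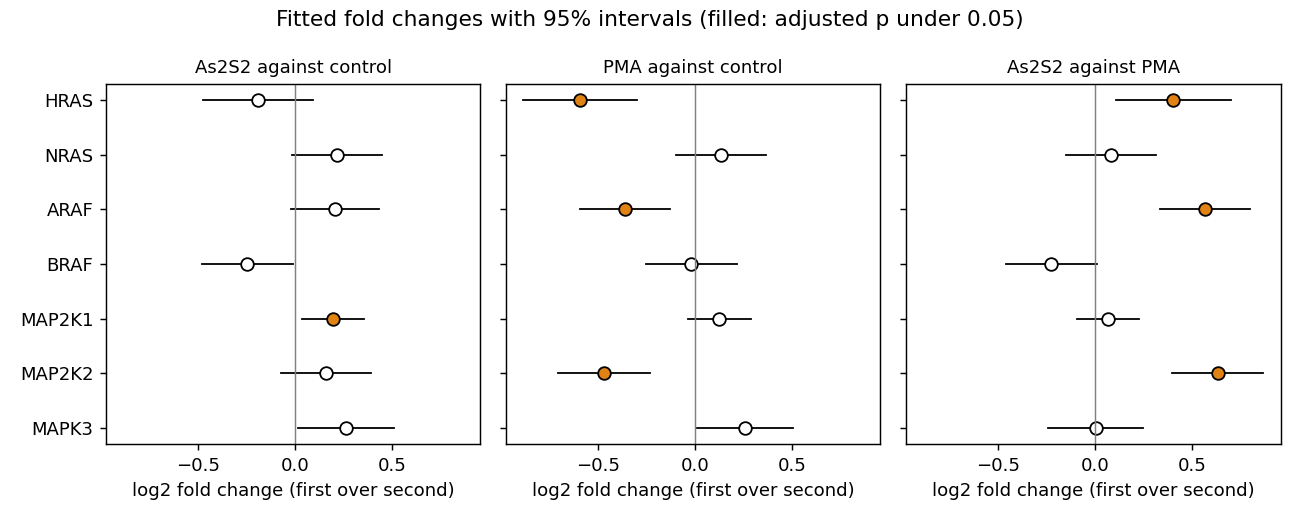
Fold changes (x axis, log2, first group over second) of the 7 genes from TMM-scaled counts, with 95% intervals of the fit. Filled points have an adjusted p under 0.05: MAP2K1 with As2S2 against control, and HRAS, ARAF and MAP2K2 in both comparisons that involve PMA.

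The other MEK gene and ERK1 differed in direction with the scale. MAP2K1 had 21.4, 23.5 and 21.9 TPM with PMA, against 28.0, 26.7 and 28.8 TPM in control, without overlap. Its fold change was -0.31 on TPM (adjusted p = 0.00199, limma) but 0.13 ± 0.08 on TMM-scaled counts (95% interval -0.03 to 0.29, adjusted p = 0.159, edgeR). Relative to the middle gene MAP2K1 therefore did not pass, and its lower TPM was close to the -0.26 of the median gene. MAPK3 had 15.2, 16.7 and 16.0 TPM with PMA, against 16.4, 20.3 and 15.8 TPM in control, and the groups overlapped. Its fold change was 0.26 ± 0.12 on TMM-scaled counts (95% interval 0.01 to 0.51, adjusted p = 0.0636, edgeR) and -0.12 on TPM (adjusted p = 0.319, limma). It was called higher with 6 of the other settings, among them without control replicate 2 (0.41, adjusted p = 0.0014, edgeR).

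NRAS and BRAF did not pass with PMA on TMM-scaled counts. NRAS had 11.6, 12.8 and 13.8 TPM with PMA, against 17.1, 13.2 and 18.3 TPM in control, and the groups overlapped. Its fold change was 0.13 ± 0.11 (95% interval -0.10 to 0.37, adjusted p = 0.303, edgeR) and -0.31 on TPM (adjusted p = 0.0816, limma). With the trend with transcript length removed it was 0.40 (adjusted p = 0.00169, limma). BRAF had 2.11, 2.55 and 2.09 TPM with PMA, against 4.58, 3.8 and 4.17 TPM in control, without overlap, yet its fold change on TMM-scaled counts was -0.02 ± 0.11 (95% interval -0.25 to 0.21, adjusted p = 0.89, edgeR). On TPM it was -0.67 (adjusted p = 0.000845, limma), and on library totals -0.28 (adjusted p = 0.041, edgeR).

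**Figure D3:**
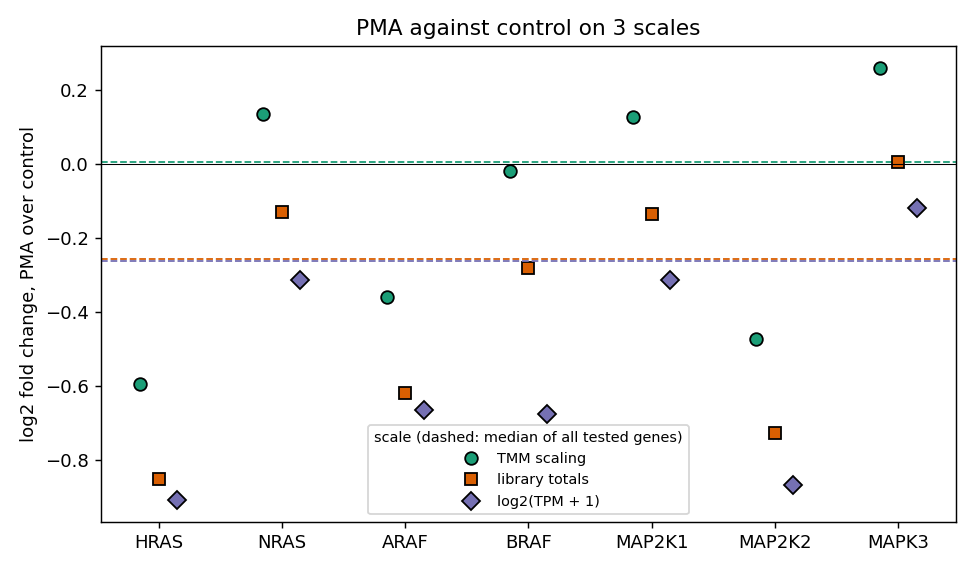
Fold change of PMA over control (y axis, log2) for the 7 genes on TMM-scaled counts, library totals and log2(TPM + 1). Dashed lines are the median of all tested genes on each scale, at -0.26 for the last 2. HRAS, ARAF, MAP2K2 and BRAF lie below the median on all 3 scales. For BRAF the gap is small on TMM-scaled counts (-0.02 against 0.00) and on library totals (-0.28 against -0.26).

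The gap between counts and TPM of BRAF lay in the number of counts behind 1 TPM, which follows the estimated length of its transcripts. Relative to the control mean this number was 1.42, 1.17 and 1.42 in PMA replicates 1, 2 and 3, against 1.09, 0.996 and 0.91 in control. In As2S2 libraries it was 1.27, 0.963 and 1.21, which overlapped with control. For the other 6 genes it stayed between 0.889 and 1.04 in all libraries. BRAF held whole counts in 0 of the 9 libraries, MAP2K1 in 1 and MAP2K2 in 7, while HRAS, NRAS, ARAF and MAPK3 held them in 9. How counts that are not whole arose is not given in the deposited tables. Whether the counting used strand is not given, and reads of overlapping antisense genes may be included.

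**Figure D4:**
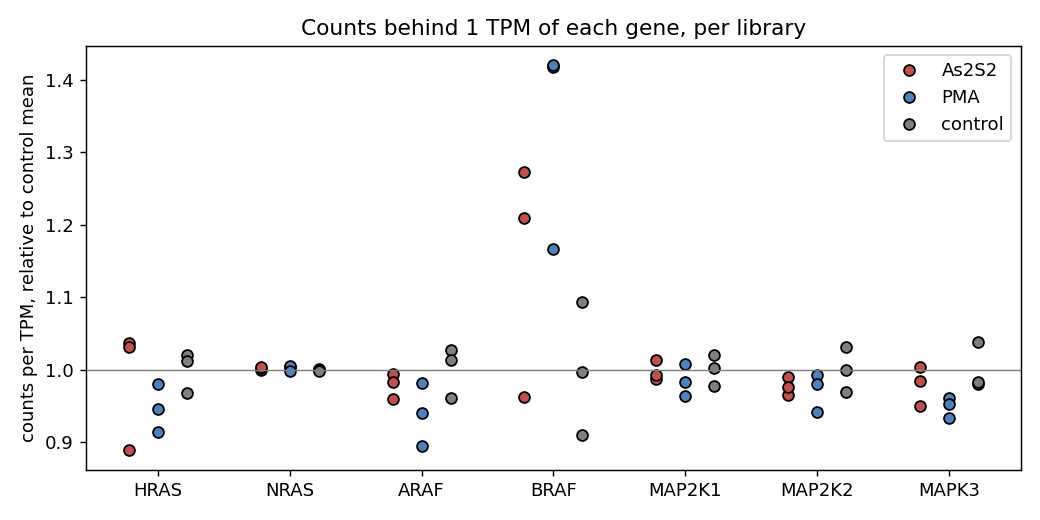
Counts per TPM of each gene (y axis, relative to the mean of the control libraries), 1 point per library. BRAF reaches 1.42 in 2 PMA libraries, while the other 6 genes stay between 0.889 and 1.04.

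With As2S2 the 7 genes stayed within 0.27 (log2) of control on TMM-scaled counts, and 1 of them passed the test. MAP2K1 had 27.9, 30.0 and 30.0 TPM in As2S2 replicates 1, 2 and 3, against 28.0, 26.7 and 28.8 TPM in control, and the groups overlapped on TPM. On TMM-scaled counts it averaged 69.3 ± 2.58 CPM with As2S2 and 60.6 ± 2.48 CPM in control (counts per 1e6, SD, n = 3 each), without overlap. The fold change was 0.19 ± 0.08 (adjusted p = 0.0495, edgeR), and 15 of the 21 other settings ended the call, among them library totals (0.11, adjusted p = 0.221, edgeR) and TPM (0.07, adjusted p = 0.445, limma). In the other 13 of these the fold change stayed between 0.17 and 0.21. Of all tested genes 20.3% rose, 19.6% fell and 39.9% changed in either direction with As2S2, so 1 of 7 is below that share.

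The remaining 6 genes did not pass. Fold changes were 0.26 for MAPK3 (95% interval 0.02 to 0.51), 0.22 for NRAS (-0.02 to 0.45), 0.21 for ARAF (-0.02 to 0.44), 0.16 for MAP2K2 (-0.07 to 0.39), -0.19 for HRAS (-0.47 to 0.09) and -0.24 for BRAF (-0.48 to -0.01). These intervals leave out a doubling or a halving of any of the 6 genes. BRAF had 2.63, 3.43 and 2.55 TPM with As2S2, against 4.58, 3.8 and 4.17 TPM in control, and was the only one of the 7 genes whose TPM did not overlap. It passed on TPM (-0.43, adjusted p = 0.0241, limma) and on library totals (-0.33, adjusted p = 0.0317, edgeR).

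The 2 libraries that stood apart lay at opposite ends of their groups for several of these genes. For HRAS, As2S2 replicates 1, 2 and 3 had 11.9, 18.7 and 13.8 TPM, against 16.5, 20.6 and 16.6 TPM in control. For ARAF they had 11.4, 14.2 and 14.1 TPM, against 11.4, 13.6 and 11.6 TPM. For MAP2K2 they had 43.3, 52.8 and 54.8 TPM, against 46.7, 52.2 and 43.8 TPM. For MAPK3 they had 18.4, 20.1 and 20.6 TPM, against 16.4, 20.3 and 15.8 TPM. In each of these 4 genes, As2S2 replicate 1 was the lowest of its group and control replicate 2 the highest, whereas for NRAS replicate 1 was the highest with As2S2 (20.8 TPM, against 14.7 and 16.0 TPM) and replicate 2 the lowest in control (13.2 TPM, against 17.1 and 18.3 TPM). Without both libraries, ARAF rose by 0.41 (adjusted p = 0.000142), MAP2K2 by 0.41 (adjusted p = 3.02e-06) and MAPK3 by 0.49 (adjusted p = 1.76e-05, edgeR). BRAF then had -0.28 (adjusted p = 0.0422) and MAP2K1 0.24 (adjusted p = 0.00227, edgeR), so that 5 of the 7 genes were called. The number of all genes called also went up, to 7489 without both libraries from 5821 with all 9. Since these 2 libraries were left out because they differed, the effect of As2S2 and that choice cannot be told apart in those values.

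Set directly against each other, As2S2 cells held more HRAS, ARAF and MAP2K2 RNA than PMA cells. Fold changes of As2S2 over PMA were 0.63 ± 0.11 for MAP2K2 (adjusted p = 0.000126), 0.57 ± 0.11 for ARAF (adjusted p = 0.000284) and 0.40 ± 0.14 for HRAS (adjusted p = 0.0196, edgeR). Of all tested genes 30.9% were higher and 30.6% lower with As2S2 than with PMA, 61.4% in all. The call of HRAS was lost without As2S2 replicate 2 (0.29, adjusted p = 0.106), PMA replicate 2 (0.39, adjusted p = 0.0575) or PMA replicate 3 (0.37, adjusted p = 0.067, edgeR). The other 4 genes did not pass on TMM-scaled counts, while on TPM 6 of the 7 were called, with NRAS at 0.39 (adjusted p = 0.0381), MAP2K1 at 0.38 (adjusted p = 0.000607) and MAPK3 at 0.29 (adjusted p = 0.0279, limma). All genes were shifted the same way on TPM: 5968 were higher and 2320 lower with As2S2 than with PMA, with a median of 0.18. On TMM-scaled counts MAPK3 stood at 0.00 ± 0.12 (95% interval -0.24 to 0.25, adjusted p = 0.985, edgeR). This comparison uses the same treated libraries as the comparisons with control.

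Within the pairs of related genes, the libraries of the MEK pair did not overlap between PMA and control, but no share difference could pass the test. MAP2K1 made up 46.5 ± 2.64% of the summed TPM of MAP2K1 and MAP2K2 with PMA and 37.0 ± 2.94% in control (SD, n = 3 each), without overlap, and 37.0 ± 2.0% with As2S2. The share of HRAS within HRAS and NRAS was 41.6 ± 2.18% with PMA and 52.6 ± 7.37% in control, without overlap, and 46.2 ± 9.81% with As2S2. The difference of -11.0 points between PMA and control was -6.78 points without control replicate 2 (61.1%, against 49.1% and 47.6% in the other controls) and -6.44 points on CPM. The share of ARAF within ARAF and BRAF was 82.2 ± 2.18% with As2S2 and 74.4 ± 3.49% in control, without overlap, and 76.5 ± 2.54% with PMA. By exact two-sided permutation tests, the differences without overlap had p = 0.1, the smallest that 3 against 3 libraries allow, and p = 0.18 after adjustment over 9 tests. A share within a library does not depend on how libraries are scaled to each other, but the shares that hold BRAF depend on its estimated length. Summed TPM of both MEK genes was 47.9 ± 2.41 with PMA and 75.4 ± 3.22 in control, and 79.6 ± 7.30 with As2S2.

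**Figure D5:**
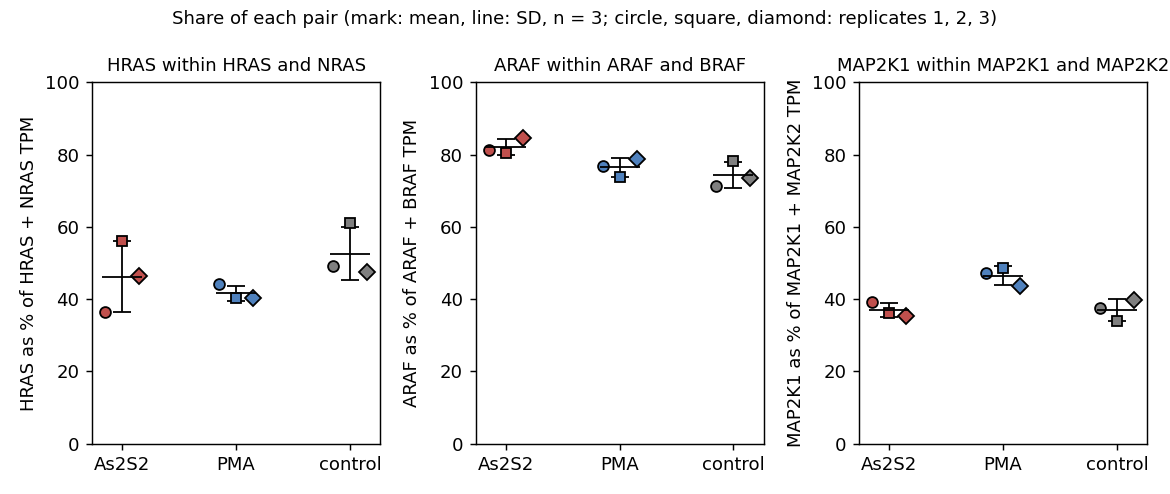
Share of the first gene in the summed TPM of each pair (y axis, percent) in As2S2, PMA and control libraries, with means and SDs (n = 3). The MAP2K1 share lies between 43.6% and 48.7% in PMA libraries, above every As2S2 and control library.

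Across the 9 libraries ARAF and MAP2K2 had the most alike patterns among the 7 genes, with a Pearson r of 0.98 of log2 CPM, while HRAS had 0.82 with MAP2K2 and -0.66 with NRAS. These values describe 9 libraries in 3 groups and carry no test. Among 9526 genes that averaged 5 CPM or more, those most like MAP2K2 were BAG6, ITPK1 and PUF60 (r = 0.99 each), those most like ARAF included UBXN1 and TNIP1 (0.99 each), and those most like HRAS were MUS81, ACOT2 and AAAS (0.98 to 0.99). For MAPK3 they were HTRA2, METRNL and ARPC4 (0.96 each), for MAP2K1 TMEM248, TRNAU1AP and NAA40 (0.94 to 0.95), for NRAS SLC30A6, VPS4B and AZIN1 (0.95 each) and for BRAF BIN2, TAB3 and DTX3L (0.84 to 0.86).

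Upstream of the cascade, most exchange factors that load RAS or the related RAP and RAL GTPases with GTP were lower with PMA. Those that fell include RAPGEF1 (-0.84) and RASGRP2 (-1.26), which act mainly on RAP GTPases. Of 7 tested, 5 fell and 1 rose, with a median of -0.84 against 0.00 for all genes, and the counts were the same on library totals and on TPM. SOS1, which the adaptor GRB2 brings to activated receptors, had 3.82 ± 0.498 TPM with PMA and 18.0 ± 2.18 TPM in control (-1.77 ± 0.10, adjusted p = 1.84e-10, edgeR). RASGRP3, whose C1 domain binds phorbol esters, rose to 12.7 ± 1.68 TPM with PMA, against 2.25 ± 0.875 TPM in control (2.69 ± 0.16, adjusted p = 4.3e-10). With As2S2, 3 rose and 1 fell (median 0.24), among them SOS1 (-0.53 ± 0.09, adjusted p = 0.000261) and RGL2, an effector and exchange factor for RAL (0.36 ± 0.09, adjusted p = 0.00505, edgeR). On TPM 0 rose and 1 fell with As2S2. Among all tested genes 31.1% fell and 30.8% rose with PMA, and 19.6% and 20.3% with As2S2.

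Proteins that return RAS to its GDP form, with the SPRED proteins that recruit one of them, were also mostly lower with PMA: 7 of 10 tested fell and 2 rose (median -0.56), and 0 rose on library totals or TPM. NF1, neurofibromin, had 1.66 ± 0.189 TPM with PMA and 3.8 ± 0.441 TPM in control (-0.75 ± 0.12, adjusted p = 6.9e-05, edgeR), and SPRED2 stood at -0.87 ± 0.11 (adjusted p = 3.18e-06). With As2S2, 2 rose and 2 fell (1 and 2 on TPM). The shares of all tested genes that fell and rose were 31.1% and 30.8% with PMA, and 19.6% and 20.3% with As2S2. RASAL3, a RAS GTPase-activating protein of blood cells, had 26.5 ± 2.57 TPM with As2S2 and 14.0 ± 0.683 TPM in control (1.01 ± 0.09, adjusted p = 4.21e-07, edgeR).

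Other GTPases of the RAS subfamily went the other way with PMA: 9 of 12 tested rose and 0 fell (median 0.62). On TPM 5 rose and 2 fell. Among all tested genes 30.8% rose and 31.1% fell with PMA, and 20.3% and 19.6% with As2S2. RAP1A, which controls integrin activation, had 220.2 ± 2.69 TPM with PMA and 73.2 ± 8.10 TPM in control (2.07 ± 0.09, adjusted p = 8.33e-12, edgeR), and RRAS, R-Ras, had 50.8 ± 2.33 and 17.8 ± 2.21 TPM (1.99 ± 0.13, adjusted p = 1.56e-09). With As2S2, 5 rose and 2 fell (median 0.16; 3 and 2 on library totals, 2 and 2 on TPM). RIT1 had 19.7 ± 3.41 TPM with As2S2 and 9.06 ± 2.16 TPM in control (1.15 ± 0.11, adjusted p = 7.49e-07, edgeR), while RAP1A stood at -0.45 ± 0.09 (adjusted p = 0.000731).

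Scaffolds and regulators of RAF and MEK were split with PMA, 5 higher and 7 lower of 16 tested (median -0.09), but 1 higher and 12 lower on TPM. KSR1, a scaffold that holds RAF and MEK together, had 5.57 ± 1.59 TPM with PMA and 14.8 ± 2.37 TPM in control (-1.22 ± 0.11, adjusted p = 5.22e-08, edgeR). LAMTOR3, which tethers MEK1 and ERK1 to late endosomes, had 24.2 ± 1.67 and 17.6 ± 1.59 TPM (0.98 ± 0.12, adjusted p = 2.9e-06). With As2S2, 5 rose and 2 fell (median 0.15), against 1 that rose and 3 that fell on TPM (median 0.02). The shares of all tested genes that rose and fell were 30.8% and 31.1% with PMA, and 20.3% and 19.6% with As2S2. Those called on TMM-scaled counts include CDC37, the co-chaperone that brings kinases to HSP90 (0.44 ± 0.07, adjusted p = 0.00012), and LAMTOR2, a partner of LAMTOR3 (-0.45 ± 0.10, adjusted p = 0.00182, edgeR).

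Downstream of ERK, kinases, ETS factors and partners were split in both comparisons: with PMA 5 of 14 rose and 4 fell (median 0.09; 3 and 7 on TPM), and with As2S2 6 rose and 3 fell (median 0.20; 2 and 2 on TPM). Among all tested genes 30.8% rose and 31.1% fell with PMA, and 20.3% and 19.6% with As2S2. The transcription factor ETS1 had 3.8 ± 0.297 TPM with PMA and 0.357 ± 0.184 TPM in control (3.86 ± 0.21, adjusted p = 1.87e-10, edgeR). The ribosomal S6 kinase RPS6KA2 was lower with PMA (-1.33 ± 0.09, adjusted p = 1.94e-09) and with As2S2 (-0.67 ± 0.09, adjusted p = 1.38e-05). PEA15, which holds ERK in the cytoplasm, had 95.3 ± 1.51 TPM with As2S2 and 70.1 ± 3.14 TPM in control (0.59 ± 0.06, adjusted p = 2.82e-06, edgeR).

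Of 10 transcripts often read as output of MEK and ERK, 9 were tested. The shares of all tested genes that rose and fell were 30.8% and 31.1% with PMA, and 20.3% and 19.6% with As2S2. With PMA 7 rose and 2 fell, with a median of 1.10 against 0.00 for all genes (6 and 2 on library totals, 4 and 3 on TPM). The 2 that fell were ETV4 (-1.08 ± 0.11, adjusted p = 4.42e-07) and ETV5 (-0.70 ± 0.08, adjusted p = 2.26e-06, edgeR). PHLDA1 had 5.95 ± 0.255 TPM with PMA and 0.56 ± 0.0889 TPM in control (3.89 ± 0.13, adjusted p = 3.3e-13, edgeR), and SPRY2, a feedback inhibitor of the cascade, 11.1 ± 0.378 and 5.18 ± 0.0751 TPM (1.59 ± 0.10, adjusted p = 1.46e-09). With As2S2 3 rose and 4 fell (median -0.08; 2 and 3 on TPM). The ERK phosphatase DUSP6 had 27.3 ± 0.341 TPM with As2S2 and 40.8 ± 1.28 TPM in control (-0.48 ± 0.06, adjusted p = 2.02e-05, edgeR), and the ETS factor ETV5 had 23.2 ± 1.10 and 16.0 ± 1.68 TPM (0.52 ± 0.08, adjusted p = 0.000107). With PMA, DUSP6 was higher on TMM-scaled counts (0.29 ± 0.06, adjusted p = 0.000602, edgeR) and lower on TPM (-0.16, adjusted p = 0.0402, limma).

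In the authors' deposited table for PMA, 3 of the 7 cascade genes had an adjusted p under 0.05, with log2 fold changes of -0.62 for HRAS, -0.39 for ARAF and -0.50 for MAP2K2. In the authors' deposited table for As2S2 this was so for 0 of them, and neither table marked any of the 7 as significant.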

How the data were processed

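RNA of MEG-01 cells was measured by poly(A)-selected sequencing in 3 As2S2, 3 PMA and 3 control libraries, grouped by the sample labels. The submitters' processing notes list fastp 0.22.0 and DESeq2 as tools of the authors. These notes name zebrafish builds and 1 control carries an organism label other than human, but the tables carry human Ensembl IDs. Aligner, counter and annotation: not given in the sources used here. The authors deposited estimated counts (expected counts, not normalized) and TPM per gene and library, per the file headers. The deposited tables also give the authors' fold change (ratio), log2 fold change and p-values.

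Counts were rounded, filtered with filterByExpr, scaled by TMM and fitted over all 9 libraries with the quasi-likelihood test of edgeR 4.0.16 (R 4.3.3), with a threshold of 0.05 after Benjamini-Hochberg adjustment. SEs were derived from the F statistic. TPM was tested as log2(TPM + 1) with limma 3.58.1, a scale on which changes of low genes are understated. The fit was tested on simulated data. Symbols were found for 62666 IDs. Pair shares were compared by exact permutation.

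Alternatives were DESeq2 1.42.0, limma-voom, scaling by RLE or the upper quartile, no filter or a stricter one (10 counts in every library of a group, mean of 1 CPM), only the groups compared, a replicate block, removal of the trend with effective length, thresholds of 0.01 and a log2 fold of 1, and each library left out in turn. Omission of both libraries that stood apart was planned from earlier results of these data. Library totals and TPM as the tested unit were added after seeing the data. Members and gene lists were chosen with earlier results of these data known. Named genes were the 7 members, per list and treatment the 2 genes of lowest adjusted p (mean of at least 5 CPM), and the 3 genes most like each member. Some genes that these rules name are not reported here.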

Additional observations from a re-analysis of the deposited data

How the results depend on the processing

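HRAS, ARAF and MAP2K2 were lower with PMA than in control in all 21 alternatives, with fold changes of -0.91 to -0.46, -0.67 to -0.26 and -0.87 to -0.33 (log2). The number of the 7 genes called with As2S2 against control (1) was 0 with RLE scaling, upper-quartile scaling, no filter, DESeq2 and only the groups compared, 2 with the length trend removed, 5 without both control replicate 2 and As2S2 replicate 1, and 0 to 4 with 1 library left out. With PMA against control (3) it was 5 with the length trend removed, on TPM and without both libraries, and 3 to 4 with 1 library left out. With As2S2 against PMA (3) it was 6 on TPM and 2 to 3 with 1 library left out. The cause was not tested. Beyond an absolute log2 fold change of 1, 1127, 3060 and 3016 of all genes changed with As2S2, PMA and As2S2 against PMA, of 5821, 9034 and 8966. Left out in turn, single libraries gave 4729 to 6320, 8282 to 9495 and 8159 to 9568. Without both control replicate 2 and As2S2 replicate 1, the numbers were 7489, 10076 and 9894. Of all genes 2962 rose and 2859 fell with As2S2 (2292 and 3537 on library totals, 1685 and 3066 on TPM), 4494 and 4540 with PMA (2955 and 6476, 1971 and 6984), and 4503 were higher and 4463 lower in As2S2 than in PMA (5770 and 3398, 5968 and 2320). With PMA, MAP2K1 turned to -0.31 on TPM, and BRAF to 0.28 with the length trend removed (adjusted p = 0.0295, limma). The ARAF share turned to -5.79 points for PMA minus control and moved to 12.9 points for As2S2 minus PMA on CPM, which leaves out length.

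Same-numbered libraries had correlations of their deviations of -0.07 to 0.15. Libraries with different numbers were not compared, so these values do not decide whether the numbers pair libraries. With the replicate block 5972, 9180 and 9044 genes changed; MAP2K1 with As2S2 missed the threshold (0.19, adjusted p = 0.0568) and MAPK3 passed with As2S2 (0.27, adjusted p = 0.0426) and with PMA (0.27, adjusted p = 0.0303, edgeR). Per library BRAF had 306 to 498 counts and HRAS 197 to 406. Fold changes against control had an SE of 0.13 to 0.14 for HRAS and 0.11 for BRAF and NRAS, so changes of about 0.2 could not be told from 0 for these genes.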

Other observations

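Genes of RAS lipid modification and transport include enzymes that attach or remove lipids, carriers between membranes, and LZTR1. With PMA 8 of 12 tested changed, 6 higher and 2 lower (3 and 4 on TPM), and with As2S2 2 changed, both higher. Of all tested genes 61.9% changed with PMA and 39.9% with As2S2. GOLGA7, part of the RAS palmitoyltransferase, had 41.9 ± 3.0 TPM with PMA and 36.1 ± 2.54 TPM in control (0.70 ± 0.07, adjusted p = 4.4e-07, edgeR). PDE6D, a carrier of prenylated RAS, had 33.0 ± 1.49 TPM with PMA and 25.4 ± 4.36 TPM in control (0.87 ± 0.10, adjusted p = 8.73e-07), and 31.2 ± 0.17 TPM with As2S2 (0.43 ± 0.10, adjusted p = 0.00214). RCE1, the protease that trims prenylated RAS, stood at 0.58 ± 0.15 with As2S2 (adjusted p = 0.00566, edgeR).

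Kinases of the other MAP kinase cascades were split with PMA, 4 higher and 4 lower of 13 tested, and with As2S2 5 rose and 1 fell. On library totals, 4 rose and 9 fell with PMA, and 3 and 2 with As2S2. The shares of all tested genes that rose and fell were 30.8% and 31.1% with PMA, and 20.3% and 19.6% with As2S2. MAP3K8 (TPL2), a MEK kinase other than RAF, had 11.0 ± 1.41 TPM with As2S2, 13.1 ± 0.638 TPM with PMA and 5.13 ± 0.575 TPM in control (0.99 ± 0.11 with As2S2, adjusted p = 4.69e-06; 1.86 ± 0.11 with PMA, adjusted p = 4.3e-10, edgeR). MAP2K5, the MEK of the ERK5 cascade, had 6.75 ± 1.29 TPM with As2S2 and 12.6 ± 0.639 TPM in control (-0.75 ± 0.12, adjusted p = 0.000105). MAPK14, p38 alpha, had 34.7 ± 1.72 TPM with PMA and 25.3 ± 1.67 TPM in control (0.89 ± 0.06, adjusted p = 3.62e-09, edgeR).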
